A study of Mus musculus with 4 samples.

Results

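The layer 5 spots are 350 of the 11064 spots of a Visium experiment on mouse brain, selected on the measured UMIs of a few deep cortical genes. A Visium spot is a small disc of tissue on a barcoded slide that takes up RNA from several cells, so each spot is a small region and not a cell. A spot qualified with at least 500 UMIs (unique molecular identifiers, each marking 1 captured transcript), at least 5 UMIs of Slc17a7, the vesicular glutamate transporter of cortical excitatory neurons, and at least 1 UMI of Fezf2. Qualifying spots were ranked by their score, the UMIs of Fezf2, Myl4, Stac2 and Rbp4 per 10000 UMIs of the spot, and the 350 highest over all libraries were taken. Of the spots, 10942 passed the first gate, 5875 of these the second and 2325 the third.

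The brains came from female C57BL/6 mice, and each combination of age and gavage was measured in 1 library. The libraries were labelled aged ethanol, aged vehicle, young ethanol and young vehicle, and wherever 4 values follow each other below they stand in that order. Young mice were 3 to 4 months old and aged mice 18 to 20 months. All of them were gavaged 10 times over 18 days, either with ethanol at 3 g/kg or with water as vehicle, and their brains were collected 18 hours after the last dose. The left hemisphere, without meninges, was cut coronally at 10 µm between bregma -2.0 and -2.2, and the labels call the tissue hippocampal. The labels do not say how many animals a library stands for, so age and gavage were each compared between single libraries, and differences between sections in plane or in RNA quality cannot be told apart from differences between conditions.

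Layer 5 is the main output layer of the neocortex. Its extratelencephalic neurons send axons to brainstem and spinal cord and depend on the transcription factor Fezf2 for that identity, its intratelencephalic neurons connect cortical areas and striatum, and its near-projecting neurons stay local. Fast-spiking interneurons, which contain the calcium buffer parvalbumin, are dense in this layer, and the myelin content of the grey matter increases from the upper to the deep layers. At the sectioned level the cortex lies above the hippocampus, and the piriform cortex and amygdala lie at its ventral edge.

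The aged ethanol, aged vehicle, young ethanol and young vehicle libraries held 67, 77, 98 and 108 of the layer 5 spots. That was 2.54% of the kept spots in aged ethanol (95% Clopper-Pearson interval 1.97 to 3.21%), 2.85% in aged vehicle (2.25 to 3.55%), 3.40% in young ethanol (2.77 to 4.13%) and 3.98% in young vehicle (3.27 to 4.78%). Both young libraries gave more members than both aged libraries, and the intervals, which cover counting error only, overlapped between neighbours in that order. With each spot thinned to 10000 UMIs and shallower spots left out (548, 794, 387 and 558 kept spots), the rule took 53, 51, 105 and 141 spots, of which 184 were original members. The shares among the 350 were 15.1, 14.6, 30.0 and 40.3% after thinning, beside 19.1, 22.0, 28.0 and 30.9% without it, so the gap between young and aged libraries was wider at 1 depth, and it was not tested.

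The members were deep spots. Their median was 23815, 20159, 22753 and 25441 UMIs, and 14 members had fewer than 10000. Summed over the members, a library held 1745311, 1617255, 2358668 and 2730911 UMIs, where 3 UMIs amount to 1.72, 1.85, 1.27 and 1.10 CPM (counts scaled to a common total over the summed UMIs). The aged ethanol members differed from the other members in RNA make-up, and so in part did other spots of that library. Mitochondrially encoded genes made up 16.9, 11.5, 13.3 and 13.2% of the members' UMIs, and Lars2, Gm42418 and AY036118, which tend to mark carry-over of ribosomal RNA, summed to 2849.9, 607, 988 and 1654 CPM. In spots past the Slc17a7 gate that were in none of the sets compared below, the mitochondrial share was 16.5, 14.4, 14.3 and 14.3%. Barcodes name positions on the slide, and 1205 of the 4187 occurred in all 4 libraries; 14 member barcodes were members in more than 1 library, and they are different spots.

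The rule genes themselves describe the members and were not tested. The score ran from 4.26 to 11.7 rule-gene UMIs per 10000, and the spot ranked 350 had 4.260 where the spot ranked 351 had 4.258, so the edge of the set is a cut through a continuous range. All 4 genes were detected in 191 members, 3 in 136 and 2 in 23. Fezf2 was at 124, 135, 117 and 111 CPM. Myl4, a myosin light chain, supplied 37.2% of all rule-gene UMIs, the largest share of the 4, at 198, 221, 188 and 208 CPM. Stac2, an adaptor of voltage-gated calcium channels, was at 145, 111, 171 and 141 CPM, lowest in aged vehicle, where 79.2% of members had a UMI of it. Rbp4, a retinol-binding protein, was at 68.8, 77.9, 78.0 and 84.2 CPM and was missing from 107 members. Slc17a7 was at 881, 1099, 899 and 1034 CPM. Within a library the levels of these genes reflect the gate as well as the tissue.

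**Figure D1:**
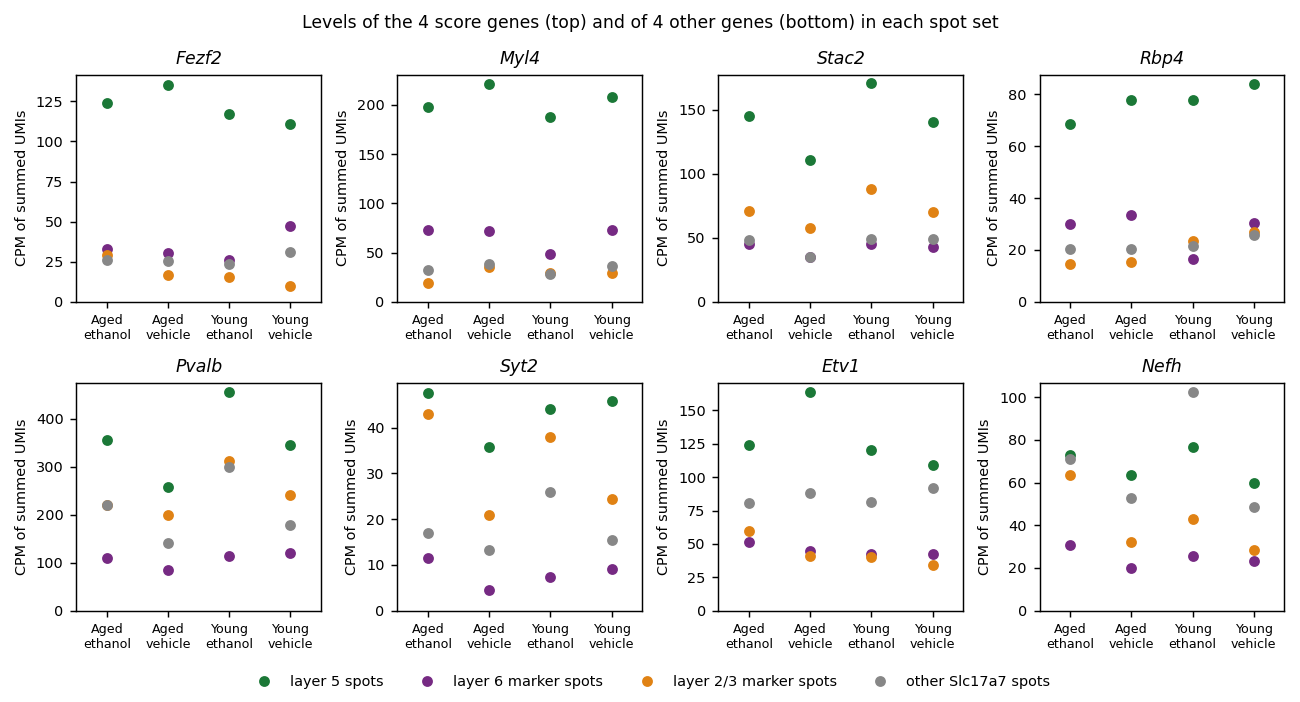
Level in CPM of summed UMIs (y axis from 0) by library (x axis) of the 4 score genes (top) and of Pvalb, Syt2, Etv1 and Nefh (bottom), with 1 point per library for the layer 5 spots, the layer 6 marker spots, the layer 2/3 marker spots and the other 4825 spots past the first gates. The score genes made the layer 5 set, and in the bottom row Pvalb stands at 257 to 455 CPM in the layer 5 spots, against 85.1 to 119 CPM in the layer 6 marker spots.

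Markers outside the rule bore the label out in part. For extratelencephalic neurons 9 of 10 markers had UMIs, and they summed to 337 to 406 CPM in the layer 5 spots, against 314 to 355 CPM in the layer 6 marker spots and 129 to 165 CPM in the layer 2/3 marker spots. The layer 5 range overlapped that of the layer 6 marker spots, and the other spots past the first gates stood at 257 to 333 CPM. Serpina3g was at 0 and Chrna6, a nicotinic receptor subunit of these neurons, had 1 UMI in all. The 8 intratelencephalic markers summed to 251 to 304 CPM in the layer 5 spots, against 126 to 144 CPM and 141 to 178 CPM in the same comparison sets. The other spots past the first gates were nearer, at 205 to 226 CPM, and the layer 5 range overlapped none of these ranges. The 7 near-projecting markers did not set the layer 5 spots apart from the layer 6 marker spots or from the other spots past the first gates: they summed to 131 to 181 CPM in the layer 5 spots, against 96.4 to 417 CPM in the layer 6 and 71.0 to 104 CPM in the layer 2/3 marker spots, and 109.8 to 248 CPM in those other spots. Layer 6 was present too: its 10 markers summed to 345 to 387 CPM in the layer 5 spots, against 479.6 to 558 CPM in the layer 6 marker spots and 187 to 249 CPM in the layer 2/3 marker spots, with Fezf1 at 0 in the members. In the other spots past the first gates they summed to 248 to 312 CPM, below the layer 5 range, so the members were richer in layer 6 markers as well. Rprm, the gate gene of the layer 6 set, had a UMI in 72.9% of the members. The members are thus spots rich in layer 5 transcripts, not pure layer 5 tissue.

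The first question was what sets the layer 5 spots apart from the layer below. The layer 6 marker spots were picked in the same way with Rprm as gate and Rprm, Syt6, Foxp2 and Hs3st4 as score, and the layer 2/3 marker spots with Cux2 as gate and Cux2, Otof, Stard8 and Lamp5 as score, 350 each. Before each spot was given to 1 set, 55 of the layer 5 spots (15.7% of each set) also qualified for layer 6 and 7 (2.00%) for layer 2/3. The aged ethanol, aged vehicle, young ethanol and young vehicle libraries held 75, 111, 72 and 92 layer 6 marker spots, and 31, 67, 126 and 126 layer 2/3 marker spots. UMIs were summed per library and set and tested with edgeR's quasi-likelihood test with library as a block and Benjamini-Hochberg adjustment over 11327 genes. A gene was called at an adjusted p under 0.05 with a change of at least 2-fold. The rule and score genes were left out of the calls, since they made the sets. In every comparison of bulk sums like these, fewer cells of a type and less RNA per cell cannot be told apart.

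In the layer 5 spots 77 genes were higher (0.68% of the genes tested) and 146 lower (1.29%) than in the layer 6 marker spots. The higher ones included Syt2, Pvalb and Kcnab3, which are known from fast-spiking interneurons, and 4 intratelencephalic markers of layer 5, and the lower ones included 2 markers of layer 6, 3 of layer 6b and 4 of piriform cortex and amygdala. Of the genes tested, 0.177% were called and at least 2-fold higher in each library and 0.494% at least 2-fold lower. The median log2 fold change of all genes was -0.00.

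Syt2, the fast calcium sensor of vesicle release in fast-spiking terminals, had the largest fold change among the genes raised at least 2-fold in each library. It stood at 47.6, 35.9, 44.1 and 45.8 CPM in the layer 5 spots, against 11.5, 4.42, 7.31 and 9.11 CPM in the layer 6 marker spots. The ranges did not overlap, as for 15.6% of all genes tested, the fit gave a log2 fold change 2.52, adjusted p = 1.04e-16, and the log2 ratio per library averaged 2.5 ± 0.41 (SD, n = 4 libraries). Pvalb, which encodes parvalbumin, stood at 356, 257, 455 and 344 CPM in the layer 5 spots, against 109.9, 85.1, 113 and 119 CPM in the layer 6 marker spots (log2 fold change 1.79, adjusted p = 8.50e-26). It was highest in the young ethanol library and lowest in the aged vehicle library of the layer 5 spots, and each layer 5 value exceeded each layer 6 value. Kcnab3, a beta subunit of voltage-gated potassium channels, stood at 57.9, 56.9, 67.8 and 45.8 CPM in the layer 5 spots and at 13.5, 17.3, 15.1 and 12.7 CPM in the layer 6 marker spots (log2 fold change 1.99, adjusted p = 3.41e-15). Coro6, a coronin that binds actin, was higher as well (log2 fold change 2.17, adjusted p = 1.34e-13), with a mean log2 ratio of 2.12 ± 0.30 (SD, n = 4).

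The start regions of Pvalb and Syt2 are shown because their transcripts were among the genes raised most over the layer 6 marker spots and had related levels across the layer 5 spots; both were picked after their values were seen. Each run covers 250 bases before and 50 after the annotated start, 5′ to 3′ on the gene's own strand, from RefSeq on GRCm38.p6, and is the first of 2 entries listed for the gene. Capitals mark matches of GGGCGG on either strand. Pvalb lies on the minus strand at chr15:78206351-78206650 and Syt2 on the plus strand at chr1:134646362-134646661.
Pvalb: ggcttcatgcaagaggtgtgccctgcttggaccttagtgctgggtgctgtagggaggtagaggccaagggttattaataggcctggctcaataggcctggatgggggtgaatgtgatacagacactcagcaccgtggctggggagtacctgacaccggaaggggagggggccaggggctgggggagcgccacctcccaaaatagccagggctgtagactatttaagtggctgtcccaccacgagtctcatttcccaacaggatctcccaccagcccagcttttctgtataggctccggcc
Syt2: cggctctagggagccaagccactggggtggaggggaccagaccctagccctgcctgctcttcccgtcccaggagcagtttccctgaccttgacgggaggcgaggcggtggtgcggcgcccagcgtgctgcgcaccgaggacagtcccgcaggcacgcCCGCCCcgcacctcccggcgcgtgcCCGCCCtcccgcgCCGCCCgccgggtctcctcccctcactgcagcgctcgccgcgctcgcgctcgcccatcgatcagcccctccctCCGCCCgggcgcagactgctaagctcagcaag
The Syt2 window held 4 matches of GGGCGG and the Pvalb window 0, and neither held a TATAAA or a CCAAT on either strand. Of 32851 windows of the same length, 35.7% held GGGCGG, 13.6% TATAAA and 37.4% CCAAT.

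Presynaptic genes beside Syt2 were higher in part. Of 17 measured release genes, 3 were called higher and 0 lower, with a median log2 fold change of 0.06: Syt2, the vesicle SNARE protein Vamp1 (1.15, adjusted p = 3.36e-15) and complexin 1, Cplx1 (1.12, adjusted p = 4.98e-22). Cplx1 stood at 804, 765, 886 and 775 CPM in the layer 5 spots, against 439.8, 377, 361 and 391 CPM in the layer 6 marker spots. Of 11 measured neurofilament and axon cytoskeleton genes, Nefh, the heavy neurofilament, was higher (log2 fold change 1.54, adjusted p = 7.36e-15) and Sncg, gamma-synuclein, lower (log2 fold change -2.20, adjusted p = 2.36e-05), although the Sncg ranges overlapped. Nefh stood at 72.8, 63.7, 76.7 and 59.7 CPM in the layer 5 spots and at 30.7, 19.9, 25.6 and 23.4 CPM in the layer 6 marker spots, without overlap. Of 11 sodium and calcium channel genes 1 was called, Scn1a, the sodium channel Nav1.1 (log2 fold change 1.02, adjusted p = 1.55e-07), and of 14 potassium and HCN channel genes 1, Kcnab3. Of 12 measured interneuron genes Pvalb was called higher and Calb2, calretinin, lower (log2 fold change -2.09, adjusted p = 4.43e-06), and the Calb2 ranges overlapped. Calb2 stood at 6.30, 13.0, 7.63 and 10.3 CPM in the layer 5 spots, against 69.8, 9.58, 102 and 9.50 CPM in the layer 6 marker spots. It was thus lower in both ethanol libraries and slightly higher in both vehicle libraries.

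Layer 5 markers outside the rule differed by projection class, with a median log2 fold change against layer 6 of 0.39 for the extratelencephalic and -0.65 for the near-projecting list. Of 8 measured intratelencephalic genes 4 were higher and 1 lower, with a median log2 fold change of 1.05. Etv1, an ETS transcription factor of layer 5, stood at 124, 164, 120.0 and 109 CPM in the layer 5 spots, against 51.1, 44.6, 42.3 and 42.8 CPM in the layer 6 marker spots (log2 fold change 1.59, adjusted p = 6.49e-19), without overlap. Hsd11b1, which regenerates active glucocorticoid, was higher (log2 fold change 1.63, adjusted p = 3.33e-10), as were Rspo1, a secreted enhancer of Wnt signalling (1.94, adjusted p = 2.01e-06), and Parm1, while Sulf1, which trims sulphate from heparan sulphate, was lower (log2 fold change -1.38, adjusted p = 3.11e-07). Of 6 measured extratelencephalic genes 2 were called, both higher: Pou3f1, a POU-domain transcription factor (log2 fold change 1.32, adjusted p = 3.12e-08), and Npr3, the clearance receptor of natriuretic peptides (log2 fold change 1.39, adjusted p = 0.00161). Of 5 near-projecting genes Tshz2, a zinc-finger factor, was higher (log2 fold change 1.48, adjusted p = 3.92e-06), and Ndst4, a heparan sulphate enzyme, lower (log2 fold change -1.61, adjusted p = 3.32e-04) with overlapping ranges. The other genes in the leading group were Akr1c18, a steroid dehydrogenase (1.98), Nrtn, the growth factor neurturin (1.97), Tcap (1.85), Tcerg1l (1.68) and Npnt, the matrix protein nephronectin (1.64), all as log2 fold changes. C1ql2, a synapse-organising C1q-like protein, had a log2 fold change of 2.53 with overlapping ranges; its UMIs were 33, 4, 51 and 32 in the layer 5 spots, against 10, 8, 1 and 3 in the layer 6 marker spots. Stxbp6, or amisyn, a regulator of SNARE assembly, was higher (log2 fold change 1.20, adjusted p = 6.70e-10), and so was the scaffold gene Whrn (log2 fold change 1.01, adjusted p = 2.54e-04).

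Among the genes lower in the layer 5 spots, Igfn1, an immunoglobulin-domain protein, was also called against layer 2/3. Igfn1 had 2, 5, 4 and 2 UMIs in the layer 5 spots, or 1.15, 3.09, 1.70 and 0.732 CPM, against 43.2, 36.5, 57.4 and 17.4 CPM in the layer 6 marker spots (adjusted p = 6.06e-19). Filip1, a filamin-binding protein, Nrp2, a semaphorin receptor, and Ntf3, neurotrophin 3, had log2 fold changes of -2.72, -2.57 and -2.75, and Plk5, a polo-like kinase, one of -3.11 (adjusted p = 9.99e-20). Trim54, Arhgap6 and Gm12371 had at most 3 UMIs in each library's layer 5 spots, against 16 to 30, 20 to 30 and 5 to 15 in the layer 6 marker spots. The other genes among the lowest were Cdhr1, a cadherin-related gene (-2.59), and Gm34466 (-2.32). Of 8 measured layer 6 genes 2 were lower, the adaptor Sla (-1.56) and Thsd7b (-1.11), and of 7 layer 6b genes 3: Cplx3 (-1.10), the secreted matrix protein Ccn2 (-1.24) and Nxph4 (-1.35), a neurexophilin. Of 10 piriform and amygdala genes 4 were lower: Baiap3 (-1.73), the nuclear receptor Nr2f2 (-1.59), Lmo3 (-1.37) and the vesicular zinc transporter Slc30a3; 1 was higher, Etv1, which is also a layer 5 marker. The 10 genes summed to 404 to 510.1 CPM in the layer 5 spots, against 556 to 734 CPM in the layer 6 marker spots, and their part in the other differences was not tested. An alternative added after the data were seen left spots with a UMI of Nr2f2, Baiap3 or Calb2 out of every set. Then 48 genes were higher and 56 lower. Of the 49 named genes 35 kept an adjusted p under 0.05, whatever their fold change. Tcap, Whrn, Thsd7b and Sncg did not, and the others were no longer among the genes tested. Nxph4 and Baiap3 lost their calls without the young ethanol library. DESeq2 did not call Tshz2, Thsd7b, Nxph4, Baiap3 or Calb2 against layer 6 (adjusted p from 0.0758 to 0.128). Lower too were Ccdc3 (-1.62), Rasgrf2 (-1.16), an exchange factor for Ras, Wfs1 (-1.54), Enpp6 (-1.31), a gene of maturing oligodendrocytes, and Adra2a (-1.31), an adrenergic receptor. Myelin genes (0 of 10 called, median 0.06) and mitochondrially encoded genes (0 of 13 called, median 0.40) gave no call between the deep layers.

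**Figure D2:**
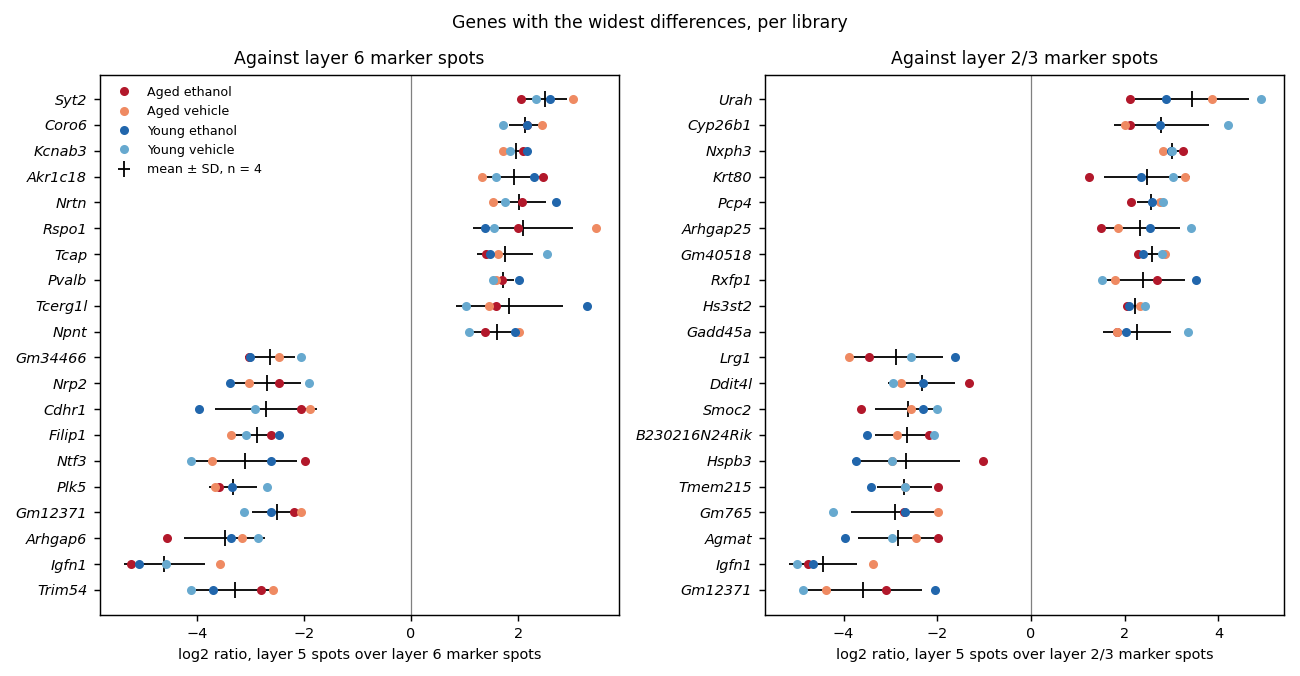
Log2 ratio of CPM (x axis) in the layer 5 spots over the layer 6 marker spots (left) and over the layer 2/3 marker spots (right) for the highest and lowest called genes, with 1 point per library and the mean ± SD of the 4 in black. Syt2 averages 2.5 on the left and Pcp4 2.57 on the right, and each gene shown lies on 1 side of 0 in every library.

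Against the upper layers the layer 5 spots carried more transcripts of all 10 myelin genes and of several deep-layer genes. In the layer 5 spots 205 genes were higher (1.81% of 11327) and 166 lower (1.47%) than in the layer 2/3 marker spots by the same test, with 0.556% called and at least 2-fold higher and 0.618% at least 2-fold lower in each library. Pcp4, a calmodulin-binding protein of deep neurons, stood at 1499, 2110.4, 2056 and 1837 CPM in the layer 5 spots, against 344, 313, 345 and 262 CPM in the layer 2/3 marker spots (log2 fold change 2.62, adjusted p = 1.33e-35). The lowest layer 5 value exceeded the highest layer 2/3 value. Nxph3, a neurexophilin, was the steadiest of the leading genes, with a mean log2 ratio of 3.01 ± 0.17 (SD, n = 4; adjusted p = 2.84e-20). Hs3st2, a heparan sulphate sulphotransferase (log2 fold change 2.28, adjusted p = 3.78e-23), Gadd45a, a stress and demethylation gene (2.27), Rxfp1, a relaxin receptor (2.28), and Arhgap25 (2.47) were also higher. Urah, Cyp26b1, which degrades retinoic acid, and Krt80, a keratin, had 0 UMIs in the 31 layer 2/3 spots of aged ethanol, beside 22, 22 and 12 in its layer 5 spots, and were called with an adjusted p of 8.10e-10, 1.52e-10 and 4.08e-06. Gm40518 completed the leading group (2.45).

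Some genes of subcortically projecting neurons were higher. Of 6 measured extratelencephalic genes 3 were called higher and 0 lower: Crym, a thyroid hormone-binding protein shared with layer 6, Bcl11b, the transcription factor CTIP2, and the sulphatase Sulf2 (log2 fold change 1.57, adjusted p = 9.33e-17). Bcl11b stood at 49.8, 58.7, 53.8 and 48.7 CPM in the layer 5 spots, against 33.1, 24.0, 15 and 14.1 CPM in the layer 2/3 marker spots (log2 fold change 1.5, adjusted p = 3.20e-12). Crym stood at 112, 137, 118 and 119.7 CPM and 33.1, 45.4, 25.5 and 20.6 CPM in the same sets (log2 fold change 2.09, adjusted p = 6.10e-22). Both were higher in each library, and in both the aged libraries had the higher layer 2/3 values. Of 8 intratelencephalic genes Sulf1 (2.22), Etv1 (1.64) and Parm1 were higher, and Rspo1 (-1.40) and Rorb (-1.08), an orphan receptor typical of layer 4, lower. Rspo1 was thus higher in the layer 5 spots than in the layer 6 marker spots and lower than in the layer 2/3 marker spots. Of 8 layer 6 genes 4 were higher, Crym, Tle4 (1.36), a corepressor, Sla (1.57) and Thsd7b (1.85), and of 7 layer 6b genes 2, Ccn2 (2.01) and Nxph4. Nxph4 had 4, 4, 8 and 10 UMIs in the layer 5 spots, against 0, 0, 0 and 1 in the layer 2/3 marker spots (adjusted p = 8.77e-06). Of 5 near-projecting genes Lypd1 (1.20) and Ndst4 (1.75) were higher. Without spots holding a UMI of Nr2f2, Baiap3 or Calb2 the Lypd1 call was lost (log2 fold change 0.19, adjusted p = 0.331), Ndst4 lost its call without aged vehicle or young vehicle, and Sla without young vehicle.

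Receptors differed gene by gene. Of 16 neuromodulator receptors 4 were higher, the somatostatin receptor Sstr2 (1.92), the dopamine receptor Drd1 (1.74), the kappa opioid receptor Oprk1 and the nicotinic subunit Chrna4, and 1 was lower, the neuropeptide Y receptor Npy1r (-1.56). Oprk1 had 5, 4, 13 and 12 UMIs in the layer 5 spots, against 0, 0, 4 and 6 in the layer 2/3 marker spots, and lost its call without young ethanol (adjusted p = 0.0623). Of 11 GABA-A receptor subunits Gabra5 was higher (1.01) and Gabrd lower (-1.0), and of 14 ionotropic glutamate receptor subunits Grik3, a kainate receptor, was higher (log2 fold change 1.76, adjusted p = 3.10e-15). Of 12 interneuron genes Tac1, the substance P precursor, was higher (1.77), and the peptides Vip (-2.00) and Crh (-1.97) lower, while Pvalb was not called. Nor was any of the 17 presynaptic, 14 potassium and HCN channel, 11 sodium and calcium channel or 11 neurofilament and axon cytoskeleton genes, so Syt2, Kcnab3, Vamp1, Cplx1, Nefh and Scn1a were called against layer 6 and not against layer 2/3. The upper-layer genes Calb1, calbindin, and Rasgrf2 were lower, 2 of 7 measured. Calb1 stood at 53.3, 86.6, 75.5 and 59.3 CPM in the layer 5 spots, against 198, 318, 226 and 260.2 CPM in the layer 2/3 marker spots (log2 fold change -1.84, adjusted p = 2.01e-23). The lowest genes were Igfn1 with 2, 5, 4 and 2 UMIs in the layer 5 spots against 32, 63, 170 and 68 in the layer 2/3 marker spots, Gm12371, Agmat, Gm765 (-2.74), Tmem215 (-2.73), Hspb3 (-2.62), B230216N24Rik (-2.61), the matrix protein Smoc2 (-2.44), Ddit4l (-2.39) and Lrg1 (-2.35). Other list genes called lower were Wfs1 (-1.47), Nectin3 (-1.95), Plk5 (-1.89), the immediate early gene Egr2 (-1.49), and the vessel and fibroblast genes Acta2 (-1.48) and Col1a2 (-2.08). Other list genes called higher were Rspo2 (1.95), Lmo3 (1.41) and, with overlapping ranges, Spink8 (1.17), C1ql2 (1.75), Ttr (1.53) and Adora2a (1.23). DESeq2 did not call C1ql2, Ttr, Adora2a, Ndst4 or Lypd1 (adjusted p from 0.0606 to 0.219). By edgeR C1ql2 also lost its call without young ethanol, and Adora2a without aged ethanol, without young vehicle or with 500 spots per set. Ttr had a log2 fold change of 0.40 without spots holding a UMI of Nr2f2, Baiap3 or Calb2, and was not called.

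All 10 measured myelin genes were called higher in the layer 5 spots than in the layer 2/3 marker spots, with a median log2 fold change of 1.34 beside -0.00 for all genes, and log2 fold changes from 1.08 (Cnp) to 1.65 (Mobp). Mbp, myelin basic protein, stood at 2303, 1511, 2432 and 2418 CPM in the layer 5 spots, against 1055, 648, 822 and 859 CPM in the layer 2/3 marker spots (log2 fold change 1.39, adjusted p = 1.20e-25). Each layer 5 value was above each layer 2/3 value, and aged vehicle was lowest in both sets. The list summed to 4222, 2941, 4546 and 4546 CPM in the layer 5 spots, against 1949, 1299, 1535 and 1580.2 CPM in the layer 2/3 marker spots. Opalin (1.57) was higher alike, and Bcas1 (1.51) and Sox10 (1.08) of 8 precursor-lineage genes were higher too. For each of the 10 genes both aged libraries had a smaller ratio than both young libraries. How many of all genes tested had that order was not counted, so it is a description only. None of the 10 was called in the test of layer by age given further on. Astrocyte (0 of 8) and microglia genes (0 of 12) were not called.

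**Figure D3:**
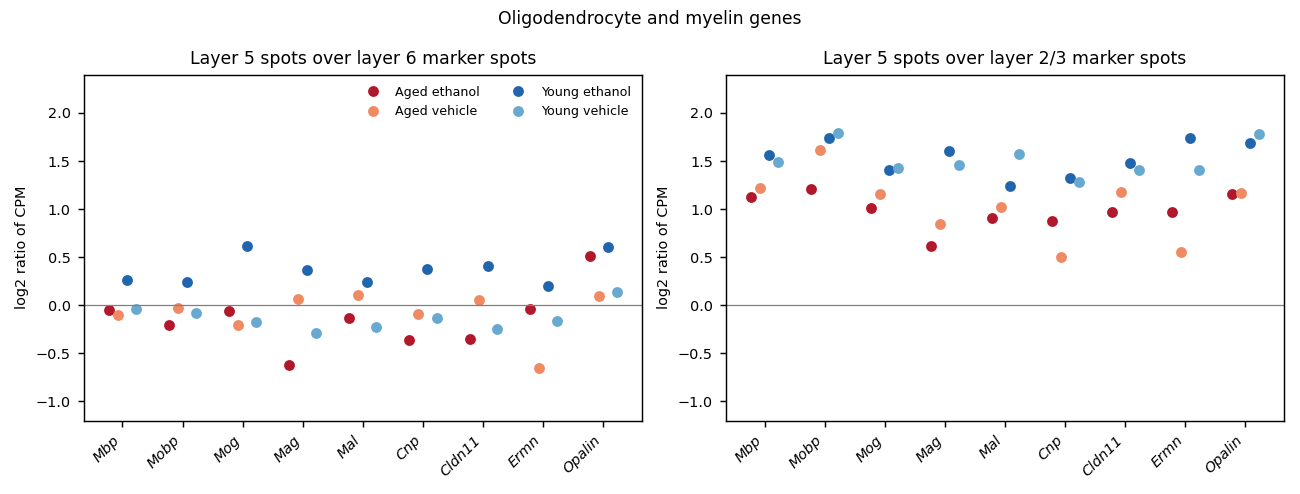
Log2 ratio of CPM (y axis) of 9 of the 10 myelin genes in the layer 5 spots over the layer 6 marker spots (left) and over the layer 2/3 marker spots (right), with 1 point per library. On the right every point lies above 0 and for each gene both aged points lie below both young points, an order not counted over all genes. On the left the points lie on both sides of 0.

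The members differed among themselves. Pvalb had a UMI in 324 of the 350 and ran from 0 to 24.3 UMIs per 10000, with a median of 2.20 and quartiles of 1.01 and 4.65. Myelin genes ran from 6.54 to 261 per 10000 with a median of 36.8. Across the 67 to 108 spots of a library, Spearman's rho of Pvalb was 0.66 to 0.72 with Cplx1, 0.44 to 0.66 with Syt2, 0.45 to 0.52 with Nefh, 0.32 to 0.62 with Vamp1 and 0.31 to 0.55 with Kcnab3, each over the 4 libraries. With Sst, somatostatin, the marker of another interneuron class, rho was -0.08 to 0.03, and with the UMIs of the spot -0.07 to 0.22. Within each library the rank correlation of Pvalb was thus above 0 with these 5 genes, chosen after their values were seen, and near 0 with Sst. Spots of a section share a library and neighbours, so these values are descriptions without a p.

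The myelin level went with shallow spots, at rho -0.59 to -0.21 with the UMIs of a spot, while the rule's score hardly did (-0.18 to -0.04). A few genes were held by few spots. The 35 members with most UMIs of a gene held 82.5% of the C1ql2 UMIs, 76.7% of those of Ttr, the choroid plexus transthyretin, 60.5% of those of Lypd1 and 38.1% of those of Pvalb. Nts, neurotensin, had 84 UMIs in 26 members, 18 of them in 1 spot. The 35 members highest for each gene held 50.7% of the Npy UMIs, 52.7% of those of Cort, 50.6% of those of Sst and 65.5% of those of Vip, and 1 spot held 182 of the 2388 Npy UMIs, so the counting intervals of these peptides leave out their spread between spots.

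Ethanol was set against vehicle within each age, in the layer 5 spots alone. With 1 library a side there is no replicate and no test: a ratio of CPM is given with its exact binomial 95% interval, which covers counting error only, and a gene met the rule of size with at least 2-fold and, in the higher library, 50 UMIs or more. In the aged pair 26 genes met it as higher and 26 as lower in ethanol (0.458% of 5681 each way, 0.915% in all), and in the young pair 11 as higher and 9 as lower (0.152% and 0.124% of 7238). Marcksl1, an actin-binding substrate of protein kinase C, was the 1 gene that met it in the same direction at both ages, lower with ethanol. It had 52 UMIs in aged ethanol and 102 in aged vehicle (29.8 and 63.1 CPM, ratio 0.472 (95% interval 0.332 to 0.666)), and 57 in young ethanol and 167 in young vehicle (24.2 and 61.2 CPM, ratio 0.395 (95% interval 0.287 to 0.537)). Ttr met it in opposite directions, with 255 UMIs in aged ethanol and 2178 in aged vehicle, and 1089 in young ethanol and 567 in young vehicle. The median log2 ratio of all genes was -0.11 in the aged pair.

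Among the genes higher in aged ethanol, the largest ratios of CPM in the aged pair were those of Lars2 and Gm42418, which tend to mark carry-over of ribosomal RNA. Lars2 was 5.2 times and Gm42418 4.66 times as high in aged ethanol as in aged vehicle. The other sets of these libraries went the same way. The log2 ratio of Lars2 was 1.53 in the layer 6 and 1.58 in the layer 2/3 marker spots, beside 2.38 in layer 5. For Gm42418 it was 1.21 and 1.66, beside 2.22, and for Bc1 1.32 and 1.66, beside 1.67. Bc1, a short noncoding RNA of dendrites named here after its values were seen, had 22887 UMIs in aged ethanol and 6655 in aged vehicle (ratio 3.19 (95% interval 3.10 to 3.28)). All 13 mitochondrially encoded genes had a log2 ratio above 0, with a median of 0.59, and mt-Atp8 (3.05) and mt-Nd6 (2.51) met the rule of size. The mitochondrial share of UMIs was 16.9% in aged ethanol and 11.5% in aged vehicle members, and its part in the other ratios was not tested beyond the alternative without these genes in the total.

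Among neuronal genes of the aged pair, 3 interneuron peptides were lower and a sodium channel subunit higher. Of 10 measured interneuron genes 3 met the rule of size, all lower in aged ethanol: Npy, neuropeptide Y, with 298 UMIs in aged ethanol and 813 in aged vehicle (ratio 0.340 (95% interval 0.296 to 0.388)), Vip with 24 and 56 (ratio 0.397 (95% interval 0.235 to 0.651)), and Cort, cortistatin, with 94 and 206 (ratio 0.423 (95% interval 0.328 to 0.542)). The whole list had a median log2 ratio of -0.33, with 2 genes above 0 and 8 below. Sst, which missed the rule, stood at 466 CPM in aged ethanol and 867 CPM in aged vehicle, and at 859 CPM in young ethanol and 998 CPM in young vehicle. Nts, named after its values were seen, had 1 UMI in aged ethanol and 51 in aged vehicle. Higher in aged ethanol were the sodium channel subunit Scn4b (ratio 2.11 (95% interval 1.38 to 3.31)) and Ermn, a myelin gene (2.45 (95% interval 1.64 to 3.75)). The 10 myelin genes had a median log2 ratio of 0.21 in the aged pair and 0.03 in the young pair.

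In the young pair Arc, an immediate early gene of synaptic plasticity, was lower with ethanol, with 163 UMIs in young ethanol and 444 in young vehicle (ratio 0.425 (95% interval 0.353 to 0.510)). In the aged pair it stood at 125 CPM in aged ethanol and 97.7 CPM in aged vehicle, with a ratio of 1.28 (95% interval 1.04 to 1.59), so Arc lay on different sides of 1 in the aged and the young pair, a difference that was not tested. The 11 measured immediate early genes had a median log2 ratio of 0.36 in the aged pair (8 above 0) and -0.27 in the young pair (4 above 0). H2-K1, a class I antigen-presenting chain, was higher in young ethanol, with 67 and 33 UMIs (ratio 2.35 (95% interval 1.53 to 3.68)). Named after their values were seen, the nuclear noncoding RNA Neat1 was higher in young ethanol (129 against 59 UMIs, ratio 2.53 (95% interval 1.85 to 3.51)), and Nnat, neuronatin (0.490 (95% interval 0.390 to 0.613)), and Fabp7, a fatty acid-binding protein of astrocytes and progenitors (0.50 (95% interval 0.332 to 0.739)), were lower.

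**Figure D4:**
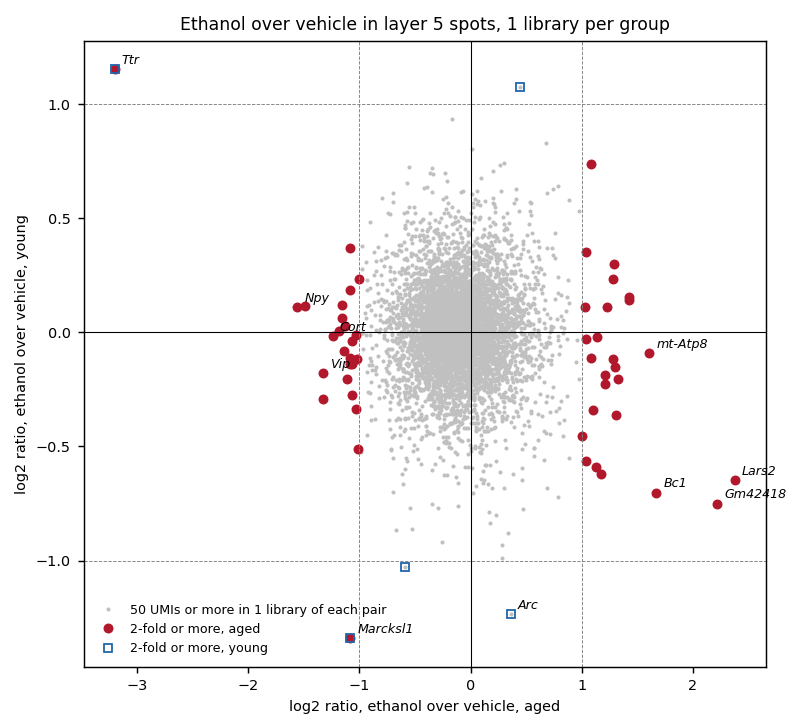
Log2 ratio of ethanol over vehicle in the layer 5 spots, with the aged pair on the x axis and the young pair on the y axis and 1 point per gene tested in both; filled points are at least 2-fold in the aged pair, open squares in the young pair, and dashed lines mark 2-fold. Lars2 lies at 2.38 on the aged axis, and Marcksl1 lies below -1 on both axes.

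Aged was set against young within each gavage in the same way. Under ethanol 10 genes met the rule of size as higher and 17 as lower in aged (0.151% and 0.256% of 6629), and under vehicle 5 as higher and 21 as lower (0.0702% and 0.295% of 7118). The ethanol pairs and the age pairs share libraries, so their ratios are not independent. Tmem63a, a mechanically gated channel, was the 1 gene that met the rule in the same direction under both gavages, lower in aged, with 23 UMIs in aged ethanol and 63 in young ethanol (ratio 0.493 (95% interval 0.292 to 0.807)), and 19 in aged vehicle and 68 in young vehicle (ratio 0.472 (95% interval 0.268 to 0.794)). Lars2, Gm42418 and Ttr met it in opposite directions.

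Under ethanol 3 immediate early genes met the rule of size as higher in aged layer 5 spots. Of 11 measured, 10 had a log2 ratio above 0, with a median of 0.76 (all genes -0.09). Fosb, a subunit of the AP-1 transcription factor, stood at 35.0 CPM in aged ethanol and 14.0 CPM in young ethanol (ratio 2.5 (95% interval 1.61 to 3.94)), Nr4a1, an orphan nuclear receptor, at 127 and 59.4 CPM (ratio 2.14 (95% interval 1.73 to 2.67)), and Egr4, a zinc-finger factor, at 116 and 56.8 CPM (ratio 2.05 (95% interval 1.64 to 2.57)). Under vehicle the same list had a median of 0.24, and Fosb stood at 22.3 CPM in aged vehicle and 17.9 CPM in young vehicle. These genes are known to be switched on by neuronal activity. In the test of layer by age given further on, 0 of 15 measured immediate early genes were called. Their median interaction log2 value was 0.09, beside 0.01 for all genes, so the rise was not shown to be particular to layer 5. The mitochondrial share of UMIs was 16.9% in aged ethanol and 13.3% in young ethanol members, and its part in these ratios was not tested.

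Under vehicle the myelin genes were lower in aged layer 5 spots throughout the list, with 10 of 10 below 0 and a median log2 ratio of -0.62, though none met the rule of size. Under ethanol the median was -0.30, with sums of 4222 CPM in aged ethanol and 4546 CPM in young ethanol, beside 2941 CPM in aged vehicle and 4546 CPM in young vehicle. The aged vehicle members were also the shallowest by median UMIs, at 20159. Within a library the myelin level was higher in shallower spots (rho -0.59 to -0.21 with UMIs), and the part of depth in the aged vehicle values was not tested. Npy was higher in aged than in young vehicle spots (ratio 2.08 (95% interval 1.87 to 2.30)) and lower under ethanol (ratio 0.654 (95% interval 0.567 to 0.752)), and Vip was lower in aged ethanol than in young ethanol (ratio 0.373 (95% interval 0.227 to 0.591)). Slc2a1, the glucose transporter of brain endothelium (ratio 0.476 (95% interval 0.375 to 0.601)), and H2-K1 (ratio 0.484 (95% interval 0.290 to 0.782)) were lower in aged ethanol than in young ethanol.

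Whether the ethanol difference in the layer 5 spots was the same as in the other cortical sets was tested as an interaction over the same sums, with library as a block and 2 libraries per gavage that differ in age. By edgeR's quasi-likelihood test 17 genes had a more positive ethanol difference in layer 5 (0.15%) and 3 a more negative one (0.0265%). Of the 17, 11 were mitochondrially encoded, among 13 measured, with interaction log2 values from 0.28 (mt-Cytb) to 0.69 (mt-Atp8). The largest was Cited4, a transcriptional coactivator partner, at 1.61 (adjusted p = 0.0239): its log2 ratio of ethanol over vehicle in layer 5 was 1.84 in the aged pair and 0.99 in the young pair, against -0.62 and -0.00 in the layer 6 marker spots and -0.16 and -0.32 in the layer 2/3 marker spots. By edgeR the Cited4 call was lost without any 1 of the 4 libraries (adjusted p from 0.154 to 0.269). Gm42418 (0.99), Lypd1 (0.95) and Lars2 (0.87) followed. For Lypd1 the layer 5 ratios were 0.28 in the aged pair and -0.99 in the young pair. They stood against -2.51 and -1.74 in the layer 6 marker spots and -0.34 and -0.60 in the layer 2/3 marker spots. Calb2 (-2.20), Fibcd1 (-1.96) and Tmsb10 (-0.33) were the 3 negative ones, and for Calb2 the layer 5 ratios were -1.04 in the aged pair and -0.43 in the young pair, against 2.87 and 3.43 in the layer 6 marker spots and 0.29 and 0.01 in the layer 2/3 marker spots. DESeq2 called 0 genes, with 68 at an unadjusted p under 0.05 where edgeR had 606, and without spots holding a UMI of Nr2f2, Baiap3 or Calb2 edgeR called 0, with 510 at an unadjusted p under 0.05. Without the young ethanol library 6 genes were called, and Lypd1 lost its call without aged ethanol or aged vehicle and Fibcd1 without young ethanol or young vehicle.

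The same test for age called Npy as more positive in layer 5 (0.95, adjusted p = 0.0201) and Trf, transferrin, which oligodendrocytes make, as more negative (-0.67, adjusted p = 0.0254), 0.00883% of genes each way and 0.0177% in all. Npy in layer 5 stood at 171, 503, 261 and 242 CPM, with aged vehicle highest and aged ethanol lowest. In the layer 6 marker spots it stood at 144, 181, 254 and 285 CPM and in the layer 2/3 marker spots at 155, 454, 372 and 456 CPM. Neither call held with each library left out: Npy missed the threshold without aged vehicle (adjusted p = 0.999), young ethanol (0.0638) or young vehicle (0.887) by edgeR, and Trf without aged ethanol (0.996), aged vehicle (0.823) or young ethanol (0.9999). DESeq2 called 0, with 33 at an unadjusted p under 0.05, beside 451 by edgeR.

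**Figure D5:**
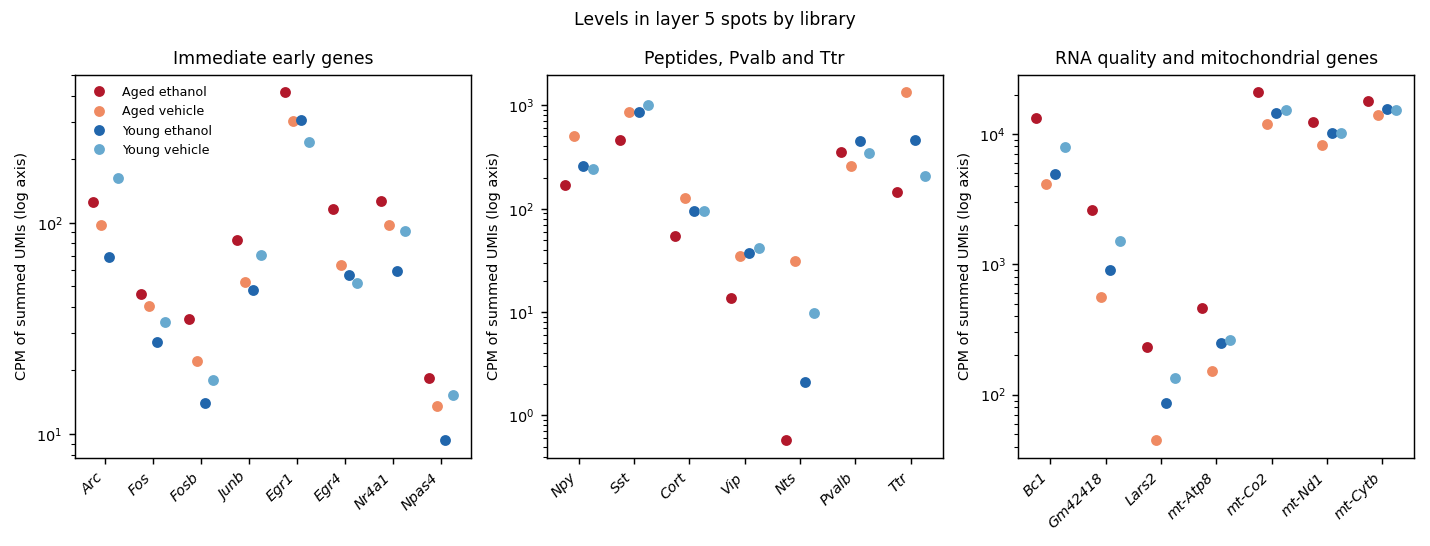
Level in CPM of summed UMIs (log axis) in the layer 5 spots, with 1 point per library, for immediate early genes (left), interneuron peptides with Nts, Pvalb and Ttr (middle) and RNA quality and mitochondrial genes (right). Npy stands at 171 CPM in aged ethanol and 503 CPM in aged vehicle, and aged ethanol is highest for each gene on the right.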

How the data were processed

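Gene expression was measured with Visium in 4 brain libraries, 1 per pairing of age and gavage. The deposited matrix holds UMI counts per gene and spot, without rescaling. Per the file headers it was written by Space Ranger 1.3.1, while the submitters' processing notes name Space Ranger 2.0.0 and mm10, and which version made the counts was not given in the sources used here. Barcode suffixes were matched to libraries by the names in the sample descriptions. No doublet caller was run, since a spot covers several cells.

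Counts were summed per library and spot set (12 sums). Layers and interactions were tested with edgeR 4.0.16 (TMM, filterByExpr, glmQLFit and glmQLFTest, library as a block, leaving 6 residual degrees of freedom for layers and 4 for interactions), with DESeq2 1.42.0 as an alternative. Nothing says that libraries stand for several animals. With library as a block, p-values measure how far the differences between sets vary from library to library. Named genes were the 10 highest and 10 lowest called genes that went the same way by at least 2-fold in each library and up to 4 called genes per list; for gavage and age, genes that met the rule of size in both pairs and up to 4 per list. Some genes that met this rule are not reported here. Members and gene lists were chosen with earlier results of these data known. Tests were checked on simulated counts with known folds. Those counts came from a mean profile shared by the libraries, so the check left out differences between sections in plane or RNA quality. A zero was replaced by 3 UMIs in ratios. The alternatives were other count tests, scalings, filters, set sizes and depths, no block, and each library left out.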

Additional observations from a re-analysis of the deposited data

Results flagged for a closer look

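In the test of layer by gavage the log2 ratio of ethanol over vehicle in the layer 5 spots was more positive than in the other cortical sets for 17 genes and more negative for 3, by edgeR's quasi-likelihood test. DESeq2 called 0, with 68 genes at an unadjusted p under 0.05 beside 606 by edgeR. The interaction log2 values were 1.61 for Cited4, 0.99 for Gm42418, 0.95 for Lypd1, 0.87 for Lars2, 0.44 for Rapgef4 and 0.37 for Bc1. Among mitochondrially encoded genes they were 0.69 for mt-Atp8, 0.43 for mt-Nd3, 0.42 for mt-Co2, 0.37 for mt-Nd1, 0.36 for mt-Nd5, 0.35 for mt-Co1, 0.34 for mt-Nd4, 0.33 for mt-Atp6, 0.31 for mt-Nd2, 0.30 for mt-Co3 and 0.28 for mt-Cytb. The negative ones were -0.33 for Tmsb10, -1.96 for Fibcd1 and -2.20 for Calb2. Within the layer 5 spots mt-Co2 had a log2 ratio of ethanol over vehicle of 0.81 in the aged pair and -0.06 in the young pair. In the same pairs it had 0.42 and -0.25 in the layer 6 marker spots, and 0.60 and -0.67 in the layer 2/3 marker spots. Bc1 had 1.67 and -0.70 in layer 5, against 1.32 and -0.90 in layer 6 and 1.66 and -1.31 in layer 2/3. For both genes the layer 5 ratio thus differed between the ages, yet lay above that of both other sets in each pair. The interaction was not tested within an age.

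In the test of layer by age the log2 ratio of aged over young was more positive in the layer 5 spots for Npy (0.95) and more negative for Trf (-0.67) than in the other sets. For both the call was lost without aged vehicle, and DESeq2 called 0, with 33 genes at an unadjusted p under 0.05 beside 451 by edgeR.

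Among genes past the rule of size, 3 moved in opposite directions in matching pairs, and these differences were not tested. Ttr had a log2 ratio of ethanol over vehicle of -3.20 in the aged pair and 1.15 in the young pair. Its log2 ratio of aged over young was -1.66 under ethanol and 2.70 under vehicle, and 35 members held 76.7% of its UMIs. Lars2 had a log2 ratio of aged over young of 1.43 under ethanol and -1.60 under vehicle, and Gm42418 1.54 and -1.44 in the same pairs.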

How the results depend on the processing

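Between layers the counts of called genes stayed within 1.5 times of 223 against layer 6 and of 371 against layer 2/3 under each alternative except the one added later, with 186 to 253 and 355 to 406 calls when each library was left out. Against layer 6 the split moved: 77 higher and 146 lower became 85 and 76 with 200 spots per set, 114 and 133 with spots of both sets left out, and 48 and 56 (104 in all) without spots holding a UMI of Nr2f2, Baiap3 or Calb2. Without the library as a replicate block there were 215 calls against layer 6 and 354 against layer 2/3. Apart from Ndst4, Lypd1, Adora2a and Ttr against layer 2/3, each gene named between layers kept an adjusted p under 0.05 without the block. Whether its change stayed at 2-fold or more was not part of this check.

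For layer by gavage edgeR called 20 genes, DESeq2 0, edgeR 1 with 200 spots, 13 with 500 spots, 0 without the spots named above, and 6 to 22 with each library left out. For layer by age edgeR called 2, DESeq2 0, edgeR 7 without the filter on low counts, 0 with 200 spots (384 at an unadjusted p under 0.05) and 0 with 500 spots (422), 8 with both interactions in 1 fit, 1 without the spots named above, and 0 to 2 with each library left out. With a minimum of 20 UMIs, ethanol against vehicle gave 248 genes in the aged and 145 in the young pair, and aged against young 174 under ethanol and 167 under vehicle. With 200 spots the young gavage pair gave 11 and the ethanol age pair 49. Without the spots named above, Cyp26b1 turned to 0.43 (log2) in the young gavage pair and L3mbtl3 to 0.043 in the ethanol age pair. Thinning put 15.1% of members in aged ethanol, 14.6% in aged vehicle and 40.3% in young vehicle. The cause of these changes was not tested. Among named genes, 2223 values held their side of the adjusted p threshold or their size under an alternative, 154 no longer passed that threshold, 62 moved out of their interval and 2 changed sign. Genes that an alternative left out of the test gave no value. The chief limits are 1 library per condition, 31 layer 2/3 spots in aged ethanol, few UMIs for low genes, and spots that hold several layers.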

Other observations

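Glial and vascular transcripts in the layer 5 spots were described by level alone. Microglia genes (12 of 12 with UMIs) summed to 586, 465, 608 and 504 CPM in the aged ethanol, aged vehicle, young ethanol and young vehicle libraries, and astrocyte genes (8 of 8) to 2289, 2131, 2198 and 2309 CPM. Reactive astrocyte genes, such as Gfap, summed to 67.6, 39.0, 75.9 and 46.9 CPM, and endothelial and mural genes to 262, 305, 379 and 334 CPM. Haemoglobin and related erythrocyte genes summed to 898, 623, 999 and 1009.9 CPM. In the aged pair 6 of 7 measured microglia genes had a log2 ratio of ethanol over vehicle above 0, with a median of 0.38 (all genes -0.11). Of these genes 0 met the rule of size.

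Genes of the glucocorticoid response had 8 of 10 log2 ratios of aged over young below 0 under ethanol, with a median of -0.37 (all genes -0.09). Under vehicle the median was -0.08 (all genes 0.02), and 0 were past the rule of size in either pair. Of the ethanol metabolism and antioxidant list, Cyp2e1 was at 0 in the members, and the other 15 genes summed to 1906, 2037, 1951 and 1946 CPM.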
